A study of Homo sapiens with 6 samples.

Results

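The DDX and DHX genes encode DEAD-box and DEAH-box proteins, most of them RNA helicases, which use ATP to unwind short RNA duplexes or to strip proteins from RNA. They are named for a short amino acid motif of the ATPase core. The members were chosen by symbol alone: every gene whose symbol in the array's probe-to-gene annotation begins with DDX or DHX was taken, from probe sets that name 1 gene only, and DDX3Y was left out. This gave 44 of 12165 genes, read by 72 of 22215 probe sets. Of the 44, 30 carried the DDX prefix and 13 the DHX prefix, and the remaining member was DHX9-AS1, a long noncoding RNA transcribed antisense beside DHX9 and no helicase. DDX11 is a DNA helicase of another family that carries the prefix. No measured value chose a member, but the family was put forward with earlier results of these arrays known, so its counts are descriptions and no test of the list was made.

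The cells were LNCaP, a human prostate cancer line that responds to androgen, and RNA was taken after 6 h of exposure. Gedunin, a limonoid of the neem tree family examined as an inhibitor of HSP90 function, was given at 20 µM to cells on 3 arrays (gedunin 1, 2 and 3). DMSO, its solvent, was given to cells on 3 arrays (DMSO 1, 2 and 3). All cells were labelled as the same line grown in serum, the labels name biological replicates without saying how the cultures were separated, and the p-values therefore cover no more than the variation among these arrays. The values are RMA intensities on a linear scale, with lower quartiles of 19.4 to 20.7 and upper quartiles of 128 to 146 on the 6 arrays. Precision is limited by how few arrays there are.

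The markers of DMSO 3 went against its label. Of 8 measured prostate and epithelial markers, 7 were lower on it by 4-fold or more than the average of the remaining 5 arrays. The exception, KLK2, was lower too but by less than 4-fold, at 20.1 on DMSO 3 against 60.3 to 84.8 on the others. The intensities of the 8 markers summed to 13639 to 14283 with gedunin. The sums were 14359 and 14765 on DMSO 1 and 2, but 207 on DMSO 3. Of 12 leukocyte markers, 10 were higher on DMSO 3 by 4-fold or more, CD3D and CD3E being the exceptions, and their summed intensity was 826 to 909 with gedunin, 997 and 1008 on DMSO 1 and 2, and 29587 on DMSO 3. Gedunin was therefore set against DMSO 1 and 2, a choice made on measured values, and DMSO 3 is given apart and added to the fit where stated. Since its markers differ, a call kept or lost with DMSO 3 added does not show how stable the gedunin change is.

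Helicases of this kind act at nearly every step in the life of an RNA. In the nucleolus they open pre-ribosomal RNA so that ribosomal subunits can be assembled, in the spliceosome they drive the rearrangements between steps, and at the nuclear pore they release mRNA to the cytoplasm. Others act in translation, RNA decay, mitochondria, germ cells and the sensing of viral RNA.

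A gene was called when limma gave its probe set a Benjamini-Hochberg adjusted p under 0.05 over all 22215 probe sets. Log2 fold changes are gedunin over DMSO 1 and 2 and their errors are moderated standard errors (n = 3 and 2 arrays). Where a gene had several probe sets, the one with the highest mean over the 6 arrays stood for it. With gedunin, 8 of the 44 members fell and 3 rose, while 33 were not called. Over all genes 9.35% were called lower and 8.22% higher. The genes that fell were DDX23, DDX19A, DDX46, DDX11, DDX28, DDX47, DDX3X and DDX43, and those that rose were DDX39A, DDX27 and DDX10. The changes were moderate: 1 member, DDX23, changed at least 2-fold, and the falls ranged from 25.4% to 55.0%.

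The median log2 fold change of the 44 members was -0.13, beside -0.02 over all genes. Below 0 lay 30 members and above it 14, beside 6516 and 5649 of all 12165 genes. For 17 members all 3 gedunin arrays lay below both DMSO 1 and DMSO 2, as did 26% of all genes, and for 4 members all lay above both, as did 20.2% of all genes. All 11 called members had groups that did not overlap, which a call on so few arrays makes likely, so it adds no support to the calls.

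**Figure D1:**
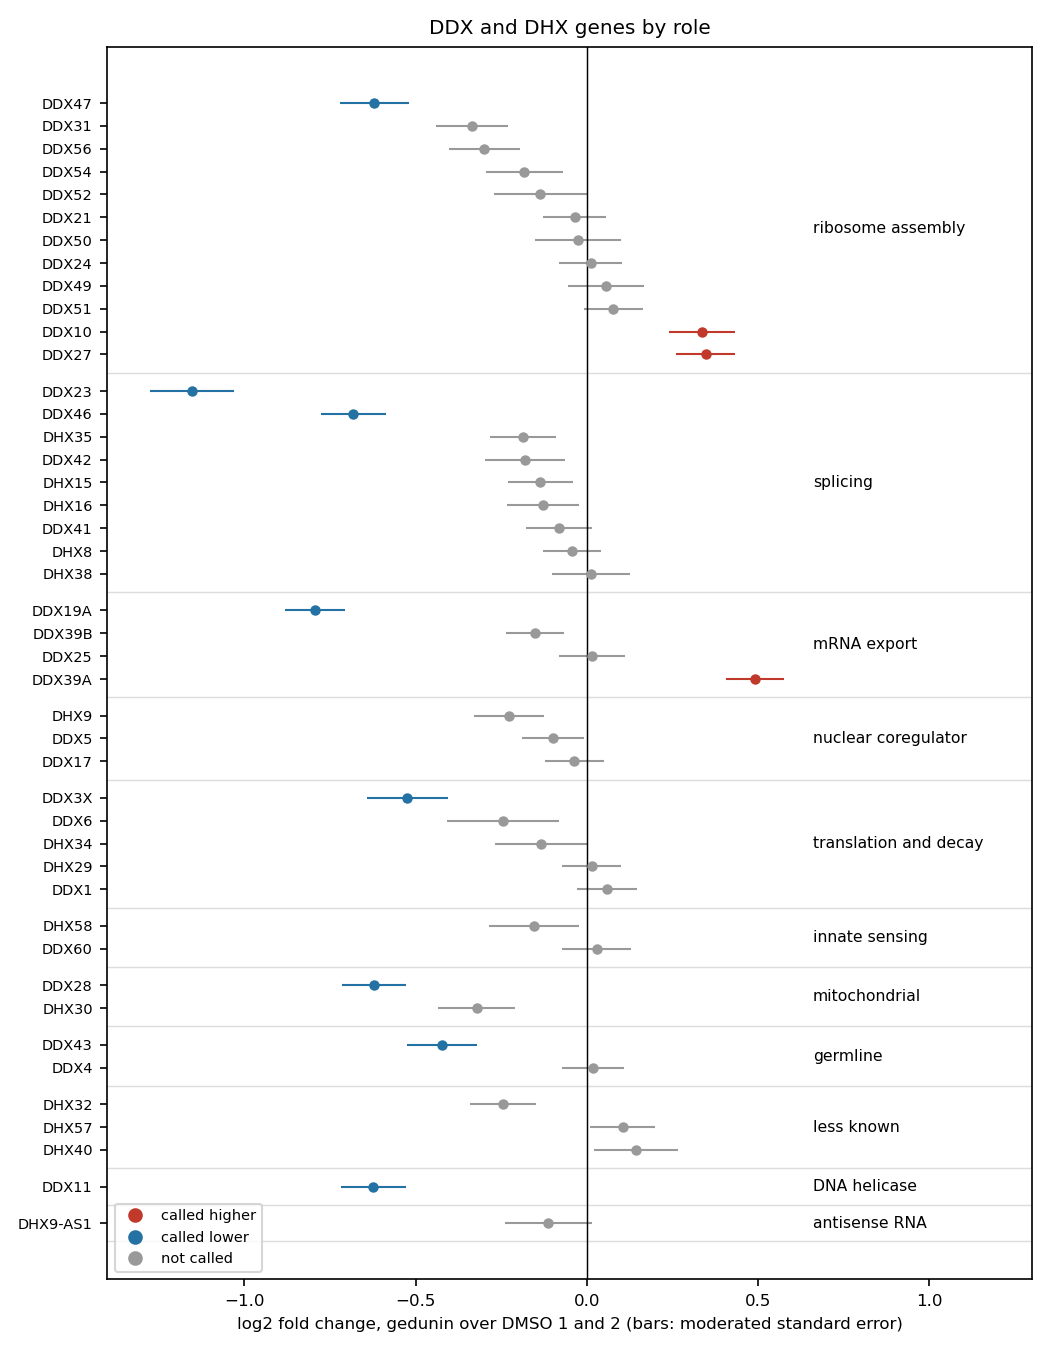
Log2 fold change (gedunin over DMSO 1 and 2, horizontal axis) of each of the 44 members, grouped by role, with bars for the moderated standard error and colours for limma's calls. DDX23 lies farthest below 0, at -1.15, and DDX39A farthest above, at 0.49, and each of the roles with more than 3 genes holds members on both sides of 0.

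The direction of small changes depended on the scaling. With each array centred on GAPDH and ACTB, the median of all genes moved to -0.19 and that of the family to -0.30. Under this centring 18 members fell and 1 rose, DDX39A, beside 25.8% of all genes lower and 5.35% higher. The 8 falls named above were among the 18. The 10 added were DDX31, DDX39B, DDX42, DDX54, DDX56, DHX9, DHX15, DHX30, DHX32 and DHX35, while DDX10 and DDX27 kept their sign but were not called.

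By prefix, the 11 calls were all among the 30 DDX genes (36.7% called, beside 17.6% of all genes), whose median log2 fold change was -0.12. Of the 13 DHX genes limma called 0, beside the same 17.6% of all genes. In limma 2 of them, DHX30 and DHX32, had an unadjusted p under 0.05, which is 15.4% of them beside 30.3% of all genes. The median of the DHX genes was -0.13, close to that of the DDX genes. Centring on GAPDH and ACTB gave 5 DHX calls, all lower (DHX9, DHX15, DHX30, DHX32 and DHX35), and averaging all probe sets of a gene gave 1, DHX30. The difference between the prefixes was not tested.

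What the genes have in common in sequence was looked at in the promoters, from 250 bases before to 50 after the start of each gene, from RefSeq on build GRCh38.p14. Of the 44 members, 41 had a promoter there, and the first listed start was used. The 10 motifs searched were read on both strands and were chosen with the expression values known. CCGGAAG, a form of the ETS factor core, was found in 18 of the 41 promoters (43.9%), beside 14.2% of 15843 promoters of protein-coding genes. GGAAGTG, which can overlap it by the letters GGAAG, was found in 10 members (24.4%, beside 13%). TGACGTCA, the full cAMP response element, was found in 4 (9.76%, beside 2.59%). Of these, 3 were called genes: DDX10, which rose, and DDX19A and DDX28, which fell. Called genes held 11 of the 41 promoters, and a link between motif and change was not tested.

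CACGTG, the E-box that MYC binds, was found in 7 members (17.1%, beside 8.88%), none of the 11 called genes among them. CCAAT was found in 17 (41.5%, beside 36.4%) and GGGCGG, an SP1-type box, in 25 (61%, beside 58.5%). GAANNTTC, a heat shock element unit, was found in 1 (2.44%, beside 5.56%) and TATAAA in 2 (4.88%, beside 9.63%). TGATGCAA, an ATF4-type element, and the ZBTB33 palindrome were found in 0 of the 41, each beside 0.669%. CCGGAAG was found in 4 of the 11 called genes, beside 43.9% of the 41 members. These were 3 of the 8 genes that fell, DDX19A, DDX46 and DDX47, and DDX27, which rose.

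The promoters of the 3 genes with the largest falls and of the gene with the largest rise are shown, read in the direction of the gene, with CCGGAAG, TGACGTCA and CCAAT on either strand in capitals. DDX23 lies on the minus strand at chr12:48852114-48852413 and its promoter holds 2 CCAAT boxes. DDX19A, on the plus strand at chr16:70346653-70346952, holds 1 CCGGAAG and 1 TGACGTCA. DDX46, on the plus strand at chr5:134758529-134758828, holds 1 CCGGAAG. DDX39A, on the minus strand at chr19:14419334-14419633, holds 3 CCAAT boxes.
DDX23: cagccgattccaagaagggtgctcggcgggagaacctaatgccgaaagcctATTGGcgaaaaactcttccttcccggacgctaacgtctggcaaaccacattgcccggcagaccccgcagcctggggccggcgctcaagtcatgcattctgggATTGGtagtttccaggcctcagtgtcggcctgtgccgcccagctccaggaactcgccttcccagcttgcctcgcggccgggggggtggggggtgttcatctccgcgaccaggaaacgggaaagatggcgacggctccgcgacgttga
DDX19A: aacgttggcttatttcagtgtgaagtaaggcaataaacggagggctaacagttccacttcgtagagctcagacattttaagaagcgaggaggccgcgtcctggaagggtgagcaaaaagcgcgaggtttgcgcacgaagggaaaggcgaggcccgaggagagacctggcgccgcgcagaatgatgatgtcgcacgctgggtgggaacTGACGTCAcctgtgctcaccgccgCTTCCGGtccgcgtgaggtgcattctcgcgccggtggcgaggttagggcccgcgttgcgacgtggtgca
DDX46: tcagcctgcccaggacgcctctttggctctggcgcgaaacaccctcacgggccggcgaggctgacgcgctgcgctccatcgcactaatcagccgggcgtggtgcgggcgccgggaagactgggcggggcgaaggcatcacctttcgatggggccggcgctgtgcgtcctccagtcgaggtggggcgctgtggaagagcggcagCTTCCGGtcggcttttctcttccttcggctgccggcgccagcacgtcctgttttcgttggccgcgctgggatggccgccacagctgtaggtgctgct
DDX39A: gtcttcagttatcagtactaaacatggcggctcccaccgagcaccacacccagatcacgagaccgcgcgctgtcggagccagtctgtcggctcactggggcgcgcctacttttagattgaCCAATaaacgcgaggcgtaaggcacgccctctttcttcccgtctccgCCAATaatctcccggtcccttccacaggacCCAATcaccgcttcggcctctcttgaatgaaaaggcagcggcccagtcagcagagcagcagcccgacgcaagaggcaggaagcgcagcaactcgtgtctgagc

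Splicing helicases were the first role considered. Of 9 measured genes 2 fell and 0 rose (22.2% called, beside 17.6% of all genes), with a median log2 fold change of -0.14. DDX23, the U5 snRNP helicase that helps hand the 5′ splice site from U1 to U6 and whose promoter is shown above, read 29.4, 37.1 and 39.1 on the gedunin arrays, against 76.6 and 78.9 on DMSO 1 and 2. Every gedunin value lay far under both DMSO values and close to the array median of 31.5, where RMA compresses folds. The log2 fold change was -1.15 ± 0.12 (limma adjusted p = 1.78e-04), a fall of 55.0%. DMSO 3 read 119, above all other arrays. The other probe set of DDX23 also fell, by 0.78 ± 0.10 on the log2 scale (limma adjusted p = 6.60e-04).

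DDX46, the U2 snRNP helicase that acts in branch site recognition, read 311, 288 and 333 with gedunin, against 487 and 509 on DMSO 1 and 2. The gedunin arrays lay together and below both DMSO arrays, and DMSO 3 read 639, higher than either. The log2 fold change was -0.68 ± 0.09 (limma adjusted p = 9.35e-04), a fall of 37.7%.

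The remaining 7 splicing genes were not called and ranged between -0.19 and 0.01. They were DDX41 and DDX42, DHX8, DHX16 and DHX38, which drive the catalytic steps and mRNA release, DHX35 and DHX15. DHX15, which takes the spliceosome apart and also acts in ribosome assembly, read 1169, 1072 and 1164 with gedunin, against 1176 and 1321 on DMSO 1 and 2. Its gedunin values all lay below DMSO, the nearest by 1169 against 1176, and the log2 fold change was -0.14 ± 0.09 (limma adjusted p = 0.417). DMSO 3 read 1694, the highest of the 6. Its other probe set had -0.26 ± 0.09 (limma adjusted p = 0.0835).

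Genes of mRNA export were measured for 4 members, and 1 fell and 1 rose (50% called, beside 17.6% of all genes). DDX19A, a helicase of the nuclear pore that remodels mRNA-protein particles as they leave, read 61.3, 64.9 and 62.6 with gedunin, against 112 and 106 on DMSO 1 and 2. The 3 gedunin values lay close together and far under both DMSO values, and DMSO 3 read 161. The log2 fold change was -0.79 ± 0.09 (limma adjusted p = 1.97e-04), a fall of 42.3%. The second probe set of DDX19A had -0.31 ± 0.12 and was not called (limma adjusted p = 0.143). The paralog DDX19B is close in sequence and 1 probe set names both genes, so the signal of the pair may be shared.

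DDX39A and DDX39B are paralogs that load the export machinery onto mRNA, and DDX39B also acts early in splicing. DDX39A read 707, 673 and 688 with gedunin, against 497 and 483 on DMSO 1 and 2, with the groups clearly apart. It rose by 0.49 ± 0.08 on the log2 scale, 1.41-fold (limma adjusted p = 0.00336). DMSO 3 read 1594, which is 3.25-fold the mean of DMSO 1 and 2, and with that array in the fit the value turned to -0.08 (limma adjusted p = 0.961). DDX39B, by contrast, read 1741, 1725 and 1743 with gedunin, against 1955 and 1902 on DMSO 1 and 2. The gedunin values lay below DMSO, and the log2 fold change of -0.15 ± 0.08 was not called (limma adjusted p = 0.293). DMSO 3 read 1734, among the gedunin values. The fourth gene of the role, the testis helicase DDX25, had 0.02 and lay under the array median on all 5 arrays.

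Ribosome assembly had the most members, 12, of which 1 fell and 2 rose (25% called, beside 17.6% of all genes), with a median of -0.03. DDX47, which acts in early 18S rRNA processing, read 319, 348 and 339 with gedunin, against 474 and 561 on DMSO 1 and 2. The highest gedunin value lay well under the lower DMSO value, and DMSO 3 read 767. The log2 fold change was -0.62 ± 0.10 (limma adjusted p = 0.00232), a fall of 35.0%.

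DDX27, which acts in large subunit rRNA processing, read 278, 300.2 and 291 with gedunin, against 225 and 231 on DMSO 1 and 2. The gedunin arrays all lay above DMSO, and the rise was 0.35 ± 0.09 on the log2 scale (limma adjusted p = 0.0230). Its 2 other probe sets had 0.29 ± 0.09 (limma adjusted p = 0.0540) and 0.27 ± 0.11 (limma adjusted p = 0.141). DDX10, a helicase of the small subunit processome, read 226, 193 and 213 with gedunin, against 171 and 162 on DMSO 1 and 2. It rose by 0.34 ± 0.10 on the log2 scale (limma adjusted p = 0.0431).

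Both rises were small and near the threshold. DMSO 3 read 355 for DDX27 and 314 for DDX10, above every gedunin array, and with it in the fit neither was called (limma adjusted p = 0.802 and 0.972). The call of DDX10 was also lost without gedunin 1 (limma adjusted p = 0.120), gedunin 3 (0.0851), DMSO 1 (0.132) or DMSO 2 (0.233), and that of DDX27 without gedunin 2 (0.0690), DMSO 1 (0.140) or DMSO 2 (0.103). The other 9 genes of the role, DDX21, DDX24, DDX31, DDX49, DDX50, DDX51, DDX52, DDX54 and DDX56, were not called and ranged from -0.33 for DDX31 to 0.08 for DDX51. DDX31 (limma adjusted p = 0.0613) and DDX56 (-0.30, limma adjusted p = 0.0899) lay nearest to the threshold among them.

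**Figure D2:**
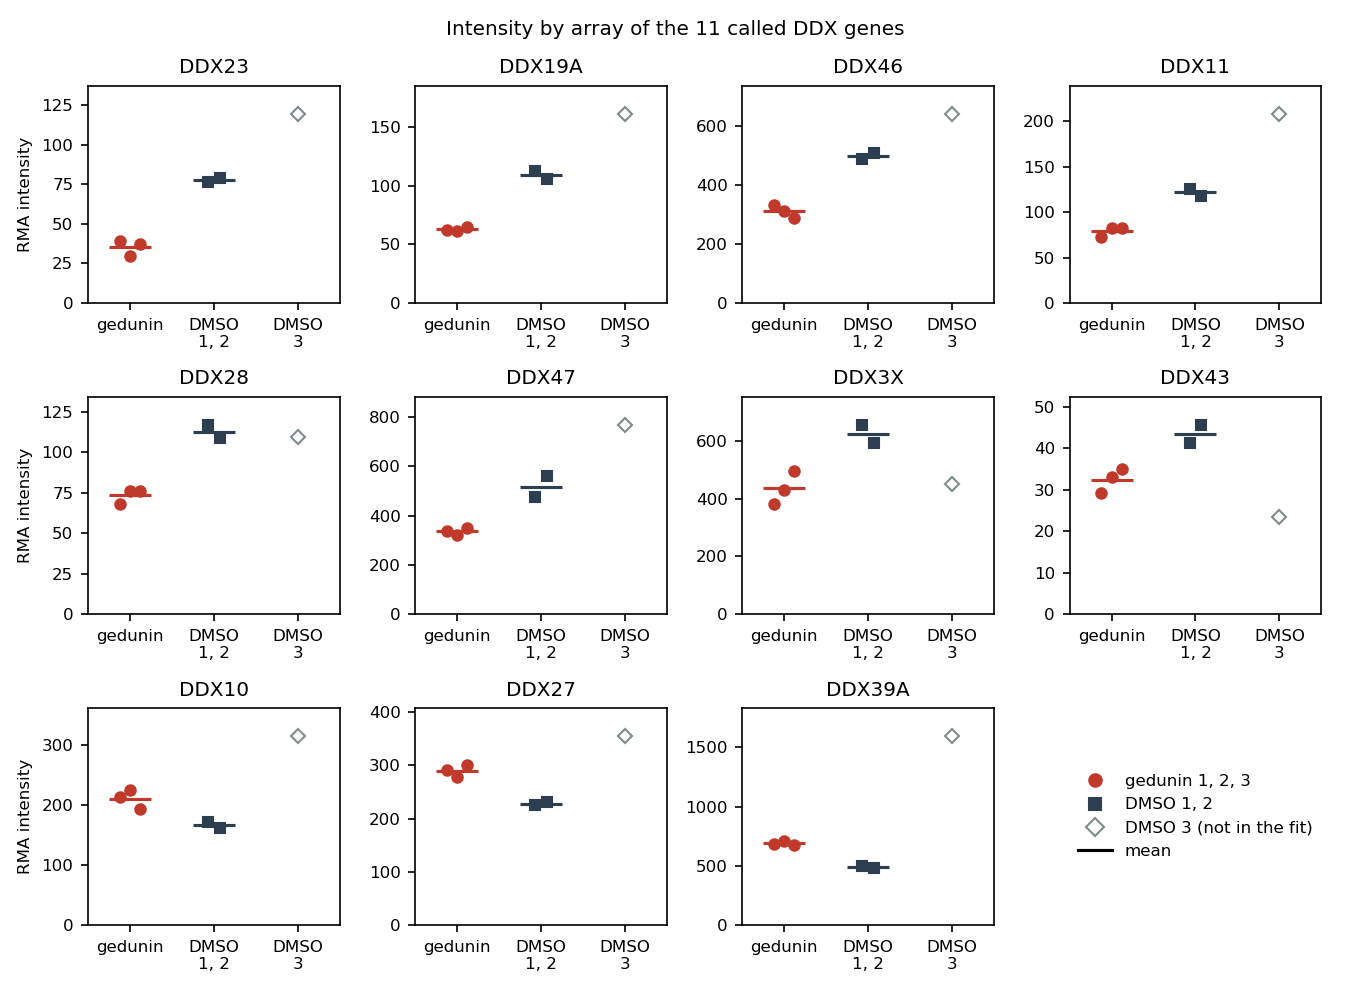
RMA intensity (vertical axis, linear, from 0) of the 11 called genes on the gedunin arrays, on DMSO 1 and 2 and, apart, on DMSO 3, with lines for the group means. For each gene the gedunin arrays lie on 1 side of DMSO 1 and 2, while DMSO 3 lies above the gedunin arrays for 9 genes and not for DDX3X and DDX43.

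Of the 5 genes of translation and RNA decay, 1 fell and 0 rose (20% called, beside 17.6% of all genes). DDX3X, which aids translation initiation on structured mRNAs and enters stress granules, read 430.2, 496 and 381 with gedunin, against 655 and 592 on DMSO 1 and 2. The gedunin arrays varied but all lay below DMSO, and the log2 fold change was -0.52 ± 0.12 (limma adjusted p = 0.0146). Of its 4 other probe sets 3 fell, by 0.39, 0.51 and 0.30 on the log2 scale, and the dimmest had 0.07. DMSO 3 read 450.4, within the gedunin values, and the call was lost with that array in the fit (-0.37, limma adjusted p = 0.527), without DMSO 1 (-0.45, 0.140) and without DMSO 2 (-0.60, 0.0580). The Y-linked copy is nearly identical, so its RNA may add to these signals.

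DDX1, a part of the tRNA ligase complex, read 965, 901 and 905 with gedunin, against 909.9 and 863 on DMSO 1 and 2. The groups overlapped, with a log2 fold change of 0.06 ± 0.09 (limma adjusted p = 0.738), and DMSO 3 read 948. DDX6, which represses and decays mRNA in processing bodies, read 24.7, 23.6 and 27.1 with gedunin, against 37.3 and 23.8 on DMSO 1 and 2. Most of these values lay under the array median of 31.5, the DMSO arrays disagreed, and the log2 fold change was -0.25 ± 0.16 (limma adjusted p = 0.394). DMSO 3 read 29.7, between the other DMSO arrays. It was called lower without DMSO 2 (-0.57, limma adjusted p = 0.0291). DHX29, an initiation factor for structured leaders, had 0.01 and DHX34, of nonsense-mediated decay, -0.13, neither called.

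The 3 nuclear coregulators, which act in transcription and RNA processing and are among the bright members, were not called. DDX5, a partner of the androgen receptor among other factors, read 1725, 1694 and 1554 with gedunin, against 1773 and 1775 on DMSO 1 and 2, all below DMSO but close to it. The log2 fold change was -0.10 ± 0.09 (limma adjusted p = 0.551). DMSO 3 read 1364, the lowest of the 6. Its paralog DDX17 read 2266, 2163 and 2263 with gedunin, against 2259 and 2315 on DMSO 1 and 2, with overlap and a log2 fold change of -0.04 ± 0.08 (limma adjusted p = 0.843), and DMSO 3 read 2193.

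The other probe sets of DDX17 did not move alike. The dimmest read 54.4, 48.3 and 68.4 with gedunin, against 39.4 and 39.8 on DMSO 1 and 2. It was called higher at 0.51 ± 0.13 on the log2 scale (limma adjusted p = 0.0294), with 56.7 on DMSO 3. The remaining 2 had 0.46 ± 0.16 and -0.25 ± 0.10, neither called (limma adjusted p = 0.0817 and 0.147). Which transcripts each one reads is not given in the sources used here.

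DHX9, RNA helicase A, a cofactor of transcription that also resolves RNA-DNA hybrids, read 541, 489 and 457 with gedunin, against 611 and 550.3 on DMSO 1 and 2. The highest gedunin value lay just under the lower DMSO value, and the log2 fold change was -0.23 ± 0.10 (limma adjusted p = 0.185). DMSO 3 read 847, the highest of the 6. Of its other probe sets 1 was called lower at -0.38 ± 0.10 (limma adjusted p = 0.0305) and the other had -0.10 ± 0.09 (limma adjusted p = 0.549). The antisense RNA DHX9-AS1 read 42.4, 48.2 and 50.5 with gedunin, against 44.4 and 57.9 on DMSO 1 and 2, with overlap and -0.11 ± 0.13 (limma adjusted p = 0.644), and DMSO 3 read 37.1.

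**Figure D3:**
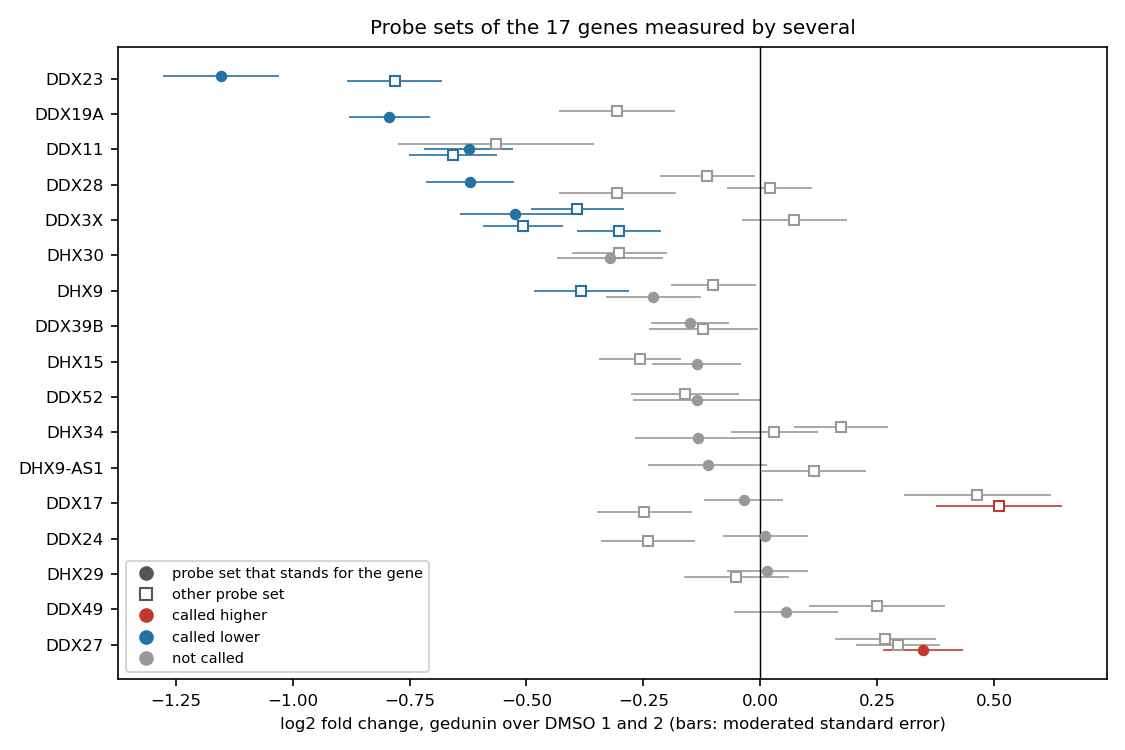
Log2 fold change (gedunin over DMSO 1 and 2, horizontal axis) of every probe set of the 17 genes read by more than 1, with moderated standard errors. Filled circles stand for the gene in the counts, and the probe sets of DDX28 and DDX17 spread most, from -0.62 to 0.02 and from -0.25 to 0.51.

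Of the 11 called genes, 6 had other probe sets, 13 in all. Of these 13, 5 were called the same way and 0 the opposite way, and for DDX23, DDX11 and DDX3X at least 1 other probe set was called. DDX17 and DHX9 were the 2 members not called that had another probe set past the threshold.

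Both mitochondrial members lay below DMSO. DDX28, which acts in assembly of the mitochondrial ribosome, read 75.9, 76.1 and 67.7 with gedunin, against 117 and 109 on DMSO 1 and 2. The log2 fold change was -0.62 ± 0.09 (limma adjusted p = 0.00160), a fall of 35.0%. DMSO 3 read 109, in the range of the other DMSO arrays, and DDX28 was the 1 member still called with all 6 arrays (-0.61, limma adjusted p = 0.0475). The other 3 probe sets of DDX28 had -0.31, -0.11 and 0.02, none called. Those with -0.11 and 0.02 were dim, at 15.3 to 19.5 on the arrays of the fit, under the array median of 31.5. DHX30, a partner of the mitochondrial ribosome, read 84.8, 83.4 and 74.0 with gedunin, against 90.7 and 112 on DMSO 1 and 2. Its log2 fold change of -0.32 ± 0.11 was not called (limma adjusted p = 0.0929), with 171 on DMSO 3.

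Of the small roles, the germline and cancer-testis gene DDX43 read 33.1, 34.9 and 29.3 with gedunin, against 41.3 and 45.6 on DMSO 1 and 2. These values too lay close to the array median, and the fall was 0.42 ± 0.10 on the log2 scale (limma adjusted p = 0.0208). DMSO 3 read 23.4, the lowest of the 6. The call was lost without DMSO 1 (-0.49, limma adjusted p = 0.0653), without DMSO 2 (-0.35, 0.173) and with DMSO 3 added (-0.13, 0.864). The germ cell helicase DDX4 had 0.02, under the array median on all 5 arrays.

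DDX11, a DNA helicase of sister chromatid cohesion, read 82.1, 83.0 and 72.9 with gedunin, against 126 and 118 on DMSO 1 and 2. All gedunin values lay below DMSO, and the log2 fold change was -0.62 ± 0.10 (limma adjusted p = 0.00166). A second probe set fell by 0.66 ± 0.09 on the log2 scale (limma adjusted p = 0.00113) and the third had -0.57 ± 0.21 (limma adjusted p = 0.109). DMSO 3 read 208. Pseudogene copies of DDX11 are near-identical, so these signals may be shared with them.

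The sensors of viral RNA showed no call. DHX58, a regulator of the RIG-I pathway, had -0.15 and DDX60 had 0.03, both under the array median on all 5 arrays. Of the genes of less known role, DHX32 had -0.24, DHX57 0.10 and DHX40 0.14, none called. In all, 6 members lay at or under the array median on all 5 arrays: DDX4, DDX25, DDX51, DDX60, DHX57 and DHX58.

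DMSO 3 lay above both other DMSO arrays for 27 members, below both for 12 and between them for 5. The same counts were not made over all genes, so they do not set the members apart. For 6 of the 8 genes that fell, all 3 DMSO arrays lay above all gedunin arrays, the exceptions being DDX3X and DDX43. For 0 of the 3 genes that rose did all gedunin arrays lie above all 3 DMSO arrays. With DMSO 3 in the fit limma called 0 members higher and 1 lower, beside 1.32% and 0.353% of all genes, and at an unadjusted p under 0.05 there were 0 higher and 8 lower, beside 6.96% and 6.4% of all genes. The 3 largest falls kept their sign in that fit but were not called, with -1.36 for DDX23 (limma adjusted p = 0.0615), -0.98 for DDX19A (0.0824) and -0.80 for DDX46 (0.0691).

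DMSO 3 differed at least 2-fold from the mean of DMSO 1 and 2 for 4 members, named after their values were seen. How many of all genes did so was not counted. Of the 4 members, DDX39A is given above. DHX58 read 40.1 and DDX60 read 47.7 on DMSO 3, against at most 19.9 and 26.2 on the other 5 arrays. DHX40 read 69.8 on DMSO 3, against 202 to 274 on the others. No member reached a 4-fold difference from the nearer of the 2 DMSO arrays.

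Other RNA helicases of the same superfamilies carry other symbols, and 14 of a list of 22 symbols were measured. Of these 14, 3 fell and 2 rose (35.7% called, beside 17.6% of all genes), with a median of -0.12. DICER1, the nuclease with a helicase domain that cuts microRNA precursors, read 95.0, 102 and 113 with gedunin, against 151 and 144 on DMSO 1 and 2. It fell by 0.51 ± 0.10 on the log2 scale (limma adjusted p = 0.00671). DICER1 was read by 6 probe sets and IFIH1 by 2, and the values here are from 1 each. MTREX, the helicase of the nuclear exosome, fell by 0.34 and the translation factor EIF4A2 by 0.31 on the log2 scale (limma adjusted p = 0.0276 and 0.0358). ASCC3, of ribosome rescue, rose by 0.39 (limma adjusted p = 0.0116), as did the dim RNA sensor gene IFIH1 (0.39, limma adjusted p = 0.0392). EIF4A1 and EIF4A3 had -0.07 and -0.16, not called. With DMSO 3 in the fit none of these 5 calls held. IFIH1 read 96.2 on DMSO 3, above all other arrays, and turned to -0.38 (limma adjusted p = 0.834).

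Of 38 symbols of cofactors and complex partners, 32 were measured. Among them 6 fell and 1 rose (21.9% called, beside 17.6% of all genes), with a median of -0.10. GEMIN4, a partner of the DDX20 helicase in the SMN complex, read 59.5, 54.0 and 51.9 with gedunin, against 127 and 128 on DMSO 1 and 2. It fell by 1.21 ± 0.09 on the log2 scale (limma adjusted p = 1.98e-05). GEMIN4 was read by 2 probe sets and RBM8A by 4, and the values here are from 1 each. The ribosome assembly factor BYSL fell by 1.20 ± 0.13 on the log2 scale (limma adjusted p = 1.56e-04). The mRNA decapping scaffold EDC3 fell by 0.55, the G-patch protein GPATCH1 by 0.42, FAM98A, a tRNA ligase partner of DDX1, by 0.40 and the exon junction protein RBM8A by 0.34. NKRF, a G-patch partner of DHX15, rose by 0.33 ± 0.09 on the log2 scale (limma adjusted p = 0.0282). With DMSO 3 in the fit GEMIN4 (-1.31, limma adjusted p = 0.0143) and BYSL (-1.37, 0.0471) were still called and the other 5 were not. RBM8A read 157 on DMSO 3, below all gedunin arrays, and turned to 0.10 (limma adjusted p = 0.928). The G-patch proteins GPKOW, GPATCH3 and GPATCH4 were not called.

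**Figure D4:**
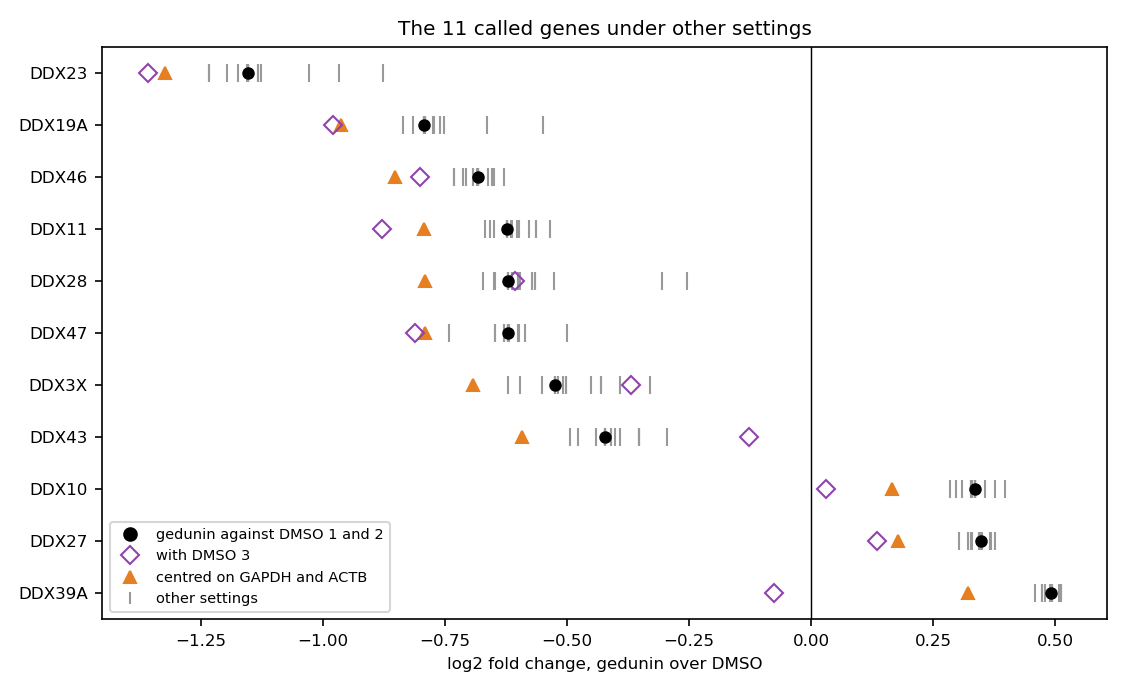
Log2 fold change (horizontal axis) of the 11 called genes in the comparison with DMSO 1 and 2 (black), with DMSO 3 added (open diamonds), centred on GAPDH and ACTB (triangles) and under the other settings (grey ticks). The 8 falls lie below 0 under every setting shown, and of the 3 rises DDX39A lies below 0, at -0.08, with DMSO 3 added.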

How the data were processed

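The authors deposited a linear intensity for each of 22215 probe sets on every array. The submitters' processing notes name RMA, without a version, which as a method removes background, equalises the arrays by quantiles, summarises the probes and compresses differences at low signal. No values were negative, so log2 was taken. Of the probe sets, 19724 named 1 gene in the platform annotation of 2016, 568 several and 1923 none.

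Gedunin (3 arrays) was compared with DMSO 1 and 2 by limma (version 3.58.1, R 4.3.3; lmFit, eBayes) over all probe sets. In a simulation modelled on this comparison over 22215 probe sets, 50 were altered at each size. The fit found 38% of those altered by 0.5 on the log2 scale, 80% at 1 and 100% at 2 and at 4. It made 7 false calls. The simulated noise was drawn independently from the spread of the gedunin arrays. In the data far more was called, 2138 of 12165 genes, so these rates do not carry over to the real comparison.

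The members and lists were chosen with earlier results of these data known. All called members were named, with DDX1, DDX3X, DDX5, DDX6, DDX17, DDX39A, DDX39B, DHX9 and DHX15 whatever their result, and, in each of the 2 other lists, up to 6 called genes of largest absolute change. DHX36 and DDX58 were also in this rule and were not among the annotated members. NKRF, a seventh, and other genes outside the rule were named after their values were seen. Alternatives were other normalizations, filters, offsets, moderation, thresholds, probe set choices, a replicate block, leaving out each array, and adding DMSO 3.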

Additional observations from a re-analysis of the deposited data

How the results depend on the processing

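The main counts were 3 members higher, 8 lower and a family median of -0.13, with 11 called genes. Adding DMSO 3 gave 0 higher and 1 lower, with 1 of the 11 calls kept and DDX39A turned to -0.075. The markers of DMSO 3 went against its label, so that fit does not show how stable the calls are. Centring on GAPDH and ACTB gave 1 higher, 18 lower and a median of -0.30. Leaving out 1 array at a time gave 1 to 2 higher, 6 to 9 lower, medians of -0.125 to -0.0943 and 7 to 10 of the 11 calls kept, and without a DMSO array the lone one is assumed to vary like the gedunin arrays. The replicate block gave 1 higher (DDX39A), 8 lower, 8 calls kept and a median of -0.10, and DDX10 (adjusted p = 0.0786), DDX27 (0.0613) and DDX43 (0.0562) lost their calls. Same-numbered arrays showed no shared deviation (r = -0.03 and 0.04 over probe sets). With 2 DMSO arrays both values rest on the same DMSO difference, so they cannot show whether same-numbered cultures were paired. An adjusted p of 0.01 kept 7 calls, 1 of them higher. Leaving out probe sets ending in _x_at or _s_at left 27 members, 1 higher and 3 lower, with 4 calls kept. Adding 16 before the logarithm gave a median of -0.0862. Except where stated, the cause was not tested. Median centring, a second quantile normalization, a filter on dim probe sets, trend and robust moderation, array weights and the 2 other probe set choices gave 2 to 3 higher and 8 to 10 lower. DDX31 was called lower without gedunin 1, centred on GAPDH and ACTB, with the dim filter and with probe sets averaged. DDX56 was called lower without gedunin 3, with the replicate block and centred on GAPDH and ACTB. DHX30 was called lower under that centring and with probe sets averaged. DDX42, DDX54, DHX32 and DHX35 were called lower under that centring only. DDX6, DDX39B, DHX9 and DHX15 were each called lower in 1 setting. Over all genes 2138 were called, against 204 with DMSO 3 added, 1152 and 1181 without DMSO 1 or DMSO 2, 3788 centred on GAPDH and ACTB, 1207 at the stricter threshold and 1271 of 8507 without those probe sets. Dim signal limits DDX6, DDX43 and the 6 genes under the array median.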
